A study of Mus musculus with 32 samples.

Results

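The response of the Nudt7-/- male liver to a Western diet (WD) was read from 8 livers of a series of 32, namely 4 from mice fed the WD and 4 from mice fed a low-fat control diet (CD). They were chosen by their labelled sex, genotype and diet, and every gene expressed in them was compared. The WD supplied 41% of its energy as fat and held 0.2% cholesterol, and the CD supplied 10% of its energy as fat and held no cholesterol. Both diets were started at 6 weeks of age, and the C57BL/6J mice were killed between 17 and 20 weeks of age. All 8 mice, fed either diet, lacked Nudt7 in the whole body through a deletion of exons 3 and 4 made with Cas9 in FVB zygotes, and the line goes back to 1 mosaic founder that was bred to C57BL/6J. Whether these livers came from fed or from 24 h-fasted mice is not given in the sources used here. The other 24 livers, WT males, Nudt7-/- females and WT females on both diets, are used only where the text says so. The guide RNAs are shown because they define the allele that both diet groups carry, with the protospacer adjacent motif in capitals.
5g: tcccaacccaacatagtggaAGG
3g: tggaattactccctaaccccAGG

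NUDT7 is a peroxisomal enzyme that splits CoA and acyl-CoAs, and the peroxisome is also where very long chain and branched fatty acids are shortened and where the side chain of bile acids is finished. Dietary cholesterol is known to keep SREBP2, the transcription factor that turns on the enzymes of cholesterol synthesis, in the membrane of the endoplasmic reticulum, while oxysterols activate LXR, which turns on genes of sterol export. Fatty acids and their derivatives are ligands of PPARα, whose textbook targets in mouse liver include the ω-hydroxylases of the Cyp4a family, the peroxisomal β-oxidation enzymes and the carnitine shuttle. The gene lists below follow these pathways.

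The promoters of 4 genes of cholesterol synthesis are shown, 3 of genes called lower with the WD and that of Hmgcs1, which missed the threshold, as RefSeq gives them for GRCm38.p6, from 250 bases before to 50 bases after the annotated start, 5′ to 3′ on the strand of the gene. Capitals mark the sterol regulatory element TCACNCCAC, which SREBPs are known to bind, and the CCAAT box, bound by NF-Y, each searched on both strands. The windows lie at chr13:119690101-119690400 on the + strand (Hmgcs1), chr13:8885356-8885655 on the + strand (Idi1), chr8:122443373-122443672 on the - strand (Mvd) and chr5:4104648-4104947 on the - strand (Cyp51).
Hmgcs1: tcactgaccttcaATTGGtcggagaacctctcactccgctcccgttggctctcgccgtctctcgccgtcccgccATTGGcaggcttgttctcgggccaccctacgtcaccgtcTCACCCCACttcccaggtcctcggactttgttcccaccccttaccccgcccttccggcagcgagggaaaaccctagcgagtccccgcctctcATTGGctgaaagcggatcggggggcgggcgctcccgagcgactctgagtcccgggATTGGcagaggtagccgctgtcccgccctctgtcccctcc
Idi1: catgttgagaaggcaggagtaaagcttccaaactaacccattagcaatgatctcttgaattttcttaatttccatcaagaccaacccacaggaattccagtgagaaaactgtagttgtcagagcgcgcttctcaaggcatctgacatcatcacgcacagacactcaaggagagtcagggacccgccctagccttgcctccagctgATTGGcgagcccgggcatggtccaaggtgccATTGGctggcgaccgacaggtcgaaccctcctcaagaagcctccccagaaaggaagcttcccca
Mvd: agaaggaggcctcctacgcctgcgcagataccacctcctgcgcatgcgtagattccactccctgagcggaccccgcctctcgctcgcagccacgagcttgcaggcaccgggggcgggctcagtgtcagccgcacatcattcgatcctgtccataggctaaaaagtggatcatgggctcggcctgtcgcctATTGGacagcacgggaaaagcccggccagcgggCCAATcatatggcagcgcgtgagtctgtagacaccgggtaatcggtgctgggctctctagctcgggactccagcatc
Cyp51: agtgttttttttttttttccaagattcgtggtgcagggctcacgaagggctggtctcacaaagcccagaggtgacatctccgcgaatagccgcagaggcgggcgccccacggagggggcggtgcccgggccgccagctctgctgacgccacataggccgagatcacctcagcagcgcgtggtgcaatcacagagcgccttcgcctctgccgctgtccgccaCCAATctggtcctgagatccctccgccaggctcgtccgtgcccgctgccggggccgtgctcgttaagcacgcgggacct
Of the 20 genes of cholesterol synthesis, 15 had a window in the RefSeq table. A CCAAT box stood in at least 1 window of 14 of these 15 (93.3%), against 43.1% of the 9601 tested genes with a window. By window it stood in 14 of 18 (77.8%), against 37.4% of all 32851 windows of this length. The box stood in 10 of 14 genes of fatty acid synthesis (71.4%), 3 of 3 SREBP2 targets outside synthesis, 5 of 7 LXR targets and efflux genes, 5 of 5 of ω-oxidation, 11 of 18 of peroxisomal fatty acid oxidation (61.1%) and 6 of 17 of mitochondrial oxidation (35.3%). The sterol regulatory element in this strict spelling stood in 1 of the 15, Hmgcs1, against 1.44% of tested genes. There it began 137 bases before the start and overlapped no CCAAT box. By window it stood in 1 of 18, against 1.24% of all windows. The element also stood in 1 of 18 genes of peroxisomal fatty acid oxidation, Ehhadh, which was called higher with the WD, and in 1 of 14 of fatty acid synthesis. It stood in 0 of 3 SREBP2 targets outside synthesis, 0 of 7 LXR targets and efflux genes, 0 of 5 of ω-oxidation and 0 of 17 of mitochondrial oxidation. The strict repeat of AGGTCA with 1 base between the copies (DR1), which PPARα is known to bind, stood in 0 of 18 genes of peroxisomal fatty acid oxidation and in 0.042% of tested genes. A match describes the letters of a window and is not a site shown to be bound.

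The 8 libraries held 10189959 to 14119439 estimated counts each. Of the 5 annotated transcripts of Nudt7, 3 had 1 read in all over the 8 libraries and at least 47 reads in every WT library of the series. The other 2 had 259 to 1663 reads in the 8 libraries and 212 to 2086 in WT libraries, so a sum over Nudt7 does not show the deletion. The first principal component (36.1% of the variance) separated the diets, and on the second (16.2%) WD replicate 1 and CD replicate 2 stood at the same end. WD replicate 1 also held 63.0 CPM (counts scaled by TMM to a common library size) of the macrophage gene Gpnmb, against 1.31 to 1.96 CPM in the other WD livers and 0.206 to 0.453 CPM in CD livers. Log2 fold changes rose with transcript length across genes (Spearman 0.24, genes not being independent replicates). Summed hepatocyte markers, mostly albumin mRNA, ran from 46963 to 67674 CPM in WD livers and from 70110 to 97267 CPM in CD livers. Fewer cells of a type and less RNA per cell cannot be told apart in bulk liver. Of 13 tested markers of Kupffer cells and macrophages 0 passed the edgeR test, with 5 at an unadjusted p under 0.05 and 2 called by DESeq2, and the sum of the 14 listed ran from 304 to 675 CPM in WD livers, with WD replicate 1 highest, and from 345 to 465 CPM in CD livers.

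Between the diets, 323 of 12407 tested genes passed the quasi-likelihood test of edgeR at an adjusted p under 0.05, which is 2.60% of them. Of these, 203 were higher (1.64% of tested genes) and 120 lower (0.967%) in WD livers, and 92 of the higher and 55 of the lower genes changed at least 2-fold. These 2 shares are the background for the number of calls in every list below. In 320 of the 323 the 4 WD and 4 CD livers did not overlap, as was so for 11.0% of all tested genes. The median log2 fold change of all tested genes was 0.01. DESeq2 on the same sums called 805 genes, and single libraries moved the edgeR count to between 111 (without WD replicate 4) and 356 (without WD replicate 2), with 147 without WD replicate 3, 173, 169, 160 and 191 without CD replicates 1 to 4 in turn, and 345 without WD replicate 1. Cholesterol synthesis was the list with the largest share of members called, as the plot of the gene lists shows, and lists of sterol export and of peroxisomal and ω-oxidation stood on the other side.

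**Figure D1:**
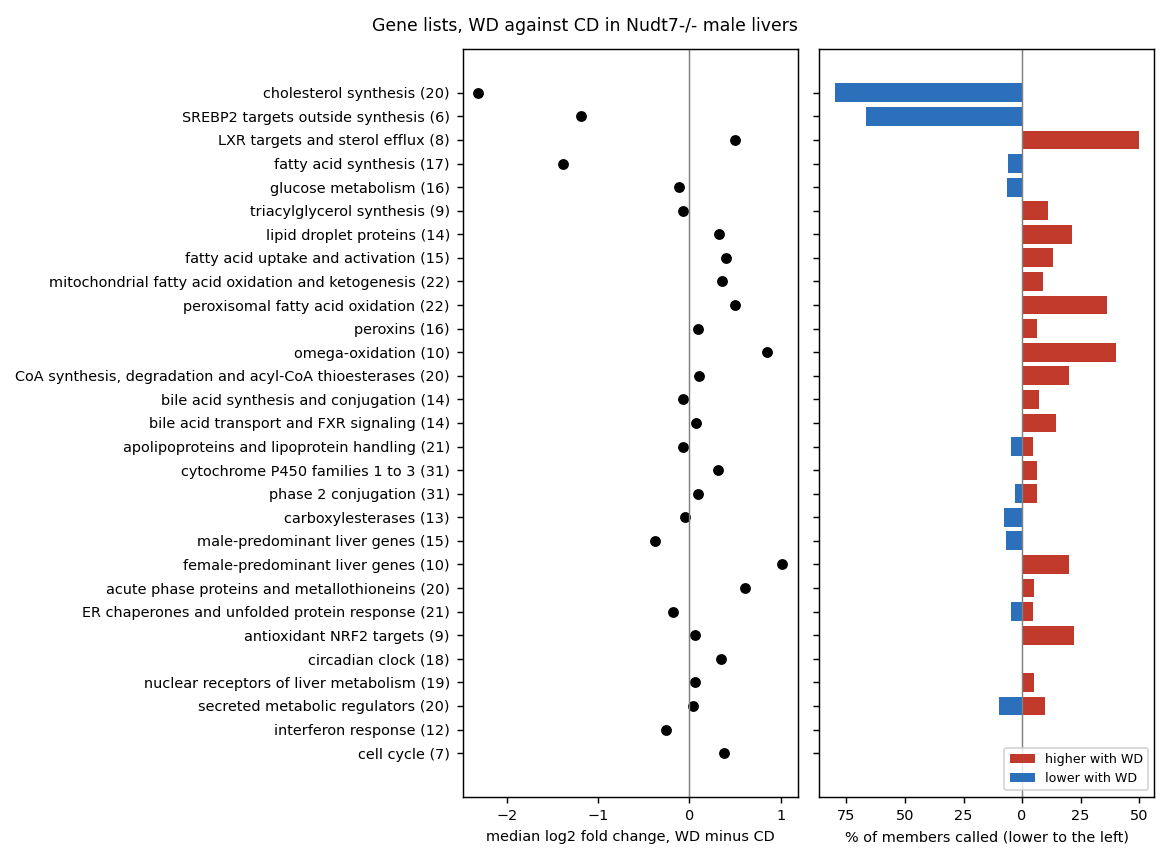
Gene lists in Nudt7-/- male livers, WD against CD, 1 list per row with the number of its tested members in brackets. Points on the left give the median log2 fold change of the members and bars on the right the percent of members called, red for higher and blue for lower with the WD. Cholesterol synthesis has a median of -2.32 with 16 of 20 members called lower, and ω-oxidation one of 0.85 with 4 of 10 called higher.

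Genes of cholesterol synthesis were lower throughout the pathway in Nudt7-/- males fed the WD. All 20 genes measured had log2 fold changes below 0, from -5.96 to -0.50 with a median of -2.32, against 0.01 over all tested genes, and 16 of the 20 passed the test. In 19 of the 20 every WD liver lay below every CD liver, as was so for 5.17% of all tested genes. Among CD livers, replicate 4 was the lowest in 18 of the 20 genes and replicate 1 the highest in 15, and among WD livers replicate 4 was the lowest in 14 and replicate 1 the highest in 13. The number called was 9 without CD replicate 2 or WD replicate 3, 10 without CD replicate 3 or WD replicate 4, 12 without CD replicate 1 or WD replicate 2, 13 without WD replicate 1 and 17 without CD replicate 4.

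**Figure D2:**
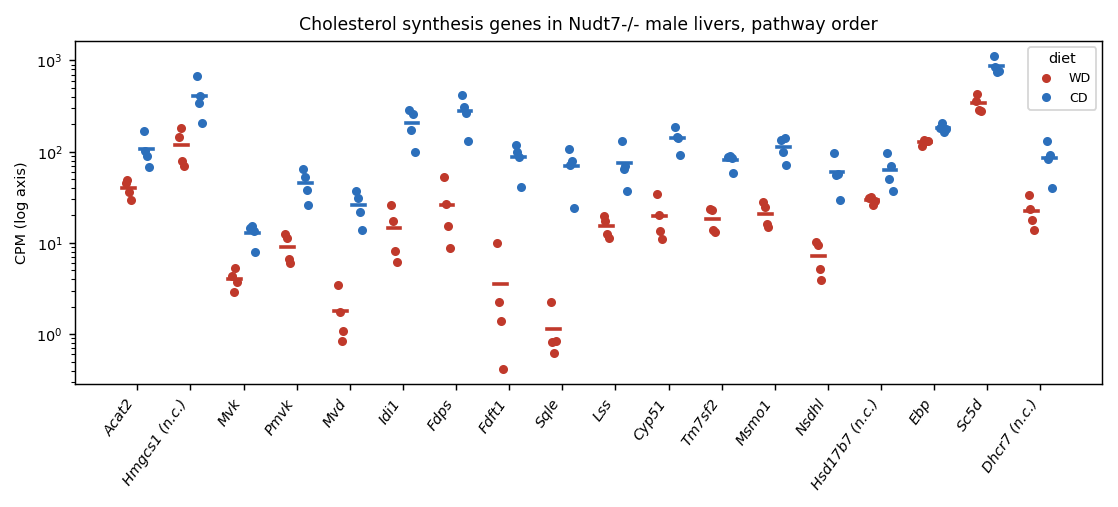
Cholesterol synthesis genes, 18 of the 20, in order of the pathway, on a log axis of CPM, with 1 point per liver, red for WD and blue for CD, and lines at the means of 4 livers. Genes marked n.c. did not pass the test. Sqle shows the widest gap, with WD livers at 0.618 to 2.24 CPM and CD livers at 23.9 to 107 CPM.

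In the early part of the pathway, Mvk, the mevalonate kinase, stood at 4.33, 2.87, 5.33 and 3.70 CPM in WD livers and 14.7, 15.3, 13.4 and 7.95 CPM in CD livers. The groups were apart, with CD replicate 4 nearest to the WD livers (log2 fold change -1.67 ± 0.24 (SE), adjusted p = 0.00506). Mvd, which decarboxylates mevalonate diphosphate to the first isoprene unit, stood at 3.44, 1.73, 0.850 and 1.09 CPM in WD livers and 36.8, 31.5, 21.6 and 13.9 CPM in CD livers. Mvk, Mvd and Pmvk, the phosphomevalonate kinase (-2.32 ± 0.34, adjusted p = 0.0161), were called without each library in turn. Hmgcs1, the HMG-CoA synthase whose promoter holds the sterol element, stood at 146, 182, 79.2 and 70.5 CPM in WD livers and 676, 342, 405 and 209 CPM in CD livers. Its groups did not overlap, but its spread within each diet was wide and it did not pass the test (-1.77 ± 0.44, adjusted p = 0.085).

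The next enzymes lead from isoprene units to squalene and its epoxide. Idi1 interconverts the 2 isoprene units and stood at 26.2, 17.5, 8.26 and 6.23 CPM in WD livers, against 286, 175, 257 and 98.5 CPM in CD livers. Every WD liver was far below every CD liver (log2 fold change -3.81 ± 0.56 (SE), adjusted p = 0.0224), although the adjusted p became 0.0515 to 0.0598 without WD replicate 3 or CD replicates 1, 2 or 3. Fdft1, the squalene synthase, stood at 10.1, 2.26, 1.39 and 0.421 CPM in WD livers and 118, 98.9, 88.5 and 41.2 CPM in CD livers. WD replicate 1 was several times above the other WD livers and still below all CD livers. Its log2 fold change was -4.61 ± 0.81 (SE), adjusted p = 0.0413, with an adjusted p of 0.0768 to 0.111 without WD replicates 2, 3 or 4 or CD replicates 1, 2 or 3. Fdps, the farnesyl diphosphate synthase, likewise passed (-3.42 ± 0.64, adjusted p = 0.0452) and not with every library left out (0.0695 to 0.114 without WD replicates 2, 3 or 4 or CD replicates 1, 2 or 3). Sqle, the squalene epoxidase and a control point of the pathway, stood at 2.24, 0.830, 0.618 and 0.841 CPM in WD livers and 107, 72.4, 79.2 and 23.9 CPM in CD livers. It was under 1 CPM in 3 WD livers and lowest among the CD livers in replicate 4, and it passed without each library.

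After cyclization by Lss (-2.32 ± 0.39, adjusted p = 0.03, with an adjusted p of 0.0514 to 0.0869 without any 1 WD library or CD replicates 2 or 3), the sterol is trimmed and reduced in the endoplasmic reticulum. Cyp51, the lanosterol 14α-demethylase, stood at 33.97, 20.4, 13.5 and 11.02 CPM in WD livers and 186, 145, 142 and 91.2 CPM in CD livers. Msmo1, a C4-methyl sterol oxidase, stood at 28.2, 24.5, 15.99 and 14.9 CPM in WD livers and 136, 98.2, 143 and 72.3 CPM in CD livers. Both were separated by diet in all livers and passed without each library (log2 fold changes -2.84 ± 0.39, adjusted p = 0.0129 and -2.43 ± 0.28, adjusted p = 0.00386). Tm7sf2, a sterol C14-reductase, stood at 23.6, 22.8, 13.9 and 13.04 CPM in WD livers and 86.8, 90.1, 85.9 and 58.5 CPM in CD livers. It had the smallest adjusted p of the list (-2.13 ± 0.22, adjusted p = 0.00137). Sc5d, a desaturase near the end of the pathway, stood at 361, 425, 285 and 280.3 CPM in WD livers and 1109.5, 841, 744 and 772 CPM in CD livers. It fell by 1.36 ± 0.18 on the log2 scale (adjusted p = 0.00346), less than the squalene enzymes. Nsdhl (-3.05 ± 0.45, adjusted p = 0.0191), Ebp (-0.51 ± 0.11, adjusted p = 0.0369) and Acat2, the cytosolic thiolase that feeds the pathway (-1.42 ± 0.28, adjusted p = 0.0413), were also called, and lost the call at adjusted p of 0.0504 to 0.059 without WD replicates 3 or 4 or CD replicates 2 or 3, of 0.0583 to 0.1 without WD replicates 1, 3 or 4 or CD replicates 1, 2 or 4 and of 0.058 to 0.111 without any 1 WD library or CD replicates 2 or 3. Dhcr7 (-1.96 ± 0.40, adjusted p = 0.0534) and Hsd17b7 (-1.10 ± 0.26, adjusted p = 0.064) were not called, although their groups did not overlap.

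Of 6 SREBP2 targets outside synthesis, 4 were lower, none was higher and the median log2 fold change was -1.19. Srebf2, the gene of SREBP2 itself, stood at 33.9, 28.9, 31.2 and 26.8 CPM in WD livers and 55.3, 54.5, 51.1 and 46.6 CPM in CD livers. The 2 groups were narrow and apart, and the fall of 0.78 ± 0.10 on the log2 scale (adjusted p = 0.00298) held without each library. Stard4, a cytosolic sterol carrier, fell (-1.61 ± 0.23, adjusted p = 0.00763), as did Insig1, which retains SREBPs in the endoplasmic reticulum (-2.36 ± 0.43, adjusted p = 0.036), and the adjusted p of Insig1 became 0.0512 to 0.0932 without WD replicate 3 or any 1 CD library. Tmem97 was not called, at a log2 fold change of -0.61.

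Calls among genes of sterol export were in the other direction. Of 8 LXR targets and efflux genes, 4 were higher and none lower, against 1.64% and 0.967% of all tested genes. Their median log2 fold change was 0.50. Abcg5 and Abcg8 encode the paired subunits of the transporter that moves cholesterol into bile. Abcg5 stood at 225, 346, 296 and 216 CPM in WD livers and 62.6, 71.9, 58.98 and 89.6 CPM in CD livers. Abcg8 stood at 236, 349.9, 347 and 237 CPM in WD livers and 73.9, 80.04, 62.3 and 83.99 CPM in CD livers. The lowest WD liver was 2.41 times the highest CD liver for Abcg5 and 2.81 times for Abcg8, and both rose by nearly the same amount (log2 fold changes 1.94 ± 0.18, adjusted p = 0.000305 and 1.96 ± 0.17, adjusted p = 0.000146). Mylip, a ubiquitin ligase of lipoprotein uptake, rose (0.62 ± 0.12, adjusted p = 0.0224), as did Abcg1, a transporter of cholesterol to HDL (1.01 ± 0.22, adjusted p = 0.0426). These 2 calls were lost at adjusted p of 0.0549 to 0.0689 without WD replicates 3 or 4 or CD replicate 3 and of 0.089 to 0.115 without WD replicates 3 or 4 or any 1 CD library.

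Fatty acid synthesis had a low median and few calls. Of 17 genes tested, 1 was lower, Acss2, and the median log2 fold change was -1.38. Acss2, the cytosolic acetyl-CoA synthetase, stood at 67.5, 76.7, 55.7 and 54.3 CPM in WD livers and 705, 322, 298 and 131 CPM in CD livers. WD livers were close together, while CD livers were spread, with replicate 1 highest and replicate 4 lowest, the order seen in cholesterol synthesis (log2 fold change -2.52 ± 0.48 (SE), adjusted p = 0.0424). Its adjusted p became 0.0715 to 0.123 without any 1 WD library or CD replicates 2 or 3. Acly, which makes cytosolic acetyl-CoA from citrate, stood at 219, 221, 200.2 and 113 CPM in WD livers and 1871, 933, 515 and 402 CPM in CD livers. Its groups did not overlap either, and it missed the threshold (-2.30 ± 0.51, adjusted p = 0.064), as did Pnpla3 (-3.85 ± 0.81, adjusted p = 0.06) and Mid1ip1 (-0.90 ± 0.22, adjusted p = 0.064). Of 16 genes of glucose metabolism, 1 was lower, the liver pyruvate kinase Pklr (-1.17 ± 0.25, adjusted p = 0.0412), which lost its call at an adjusted p of 0.0529 to 0.114 without any 1 WD library or CD replicates 1, 2 or 3. In fatty acid synthesis 12 members reached an unadjusted p under 0.05 and 8 were called by DESeq2.

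Genes that take up and store fat rose in part. Cd36, the fatty acid translocase of the plasma membrane, stood at 196, 195, 131 and 197 CPM in WD livers and 42.2, 30.6, 37.5 and 31.9 CPM in CD livers. WD replicate 3 was the lowest WD liver and still 3.10 times the highest CD liver. Its log2 fold change was 2.34 ± 0.16 (SE), adjusted p = 3.86e-05, and the call held without each library. Fabp2, a cytosolic fatty acid binding protein best known from the intestine, stood at 192, 168, 126 and 136 CPM in WD livers and 63.3, 63.4, 67.5 and 60.7 CPM in CD livers. The CD livers were nearly equal, and the lowest WD liver was 1.87 times the highest of them (1.29 ± 0.13, adjusted p = 0.000556). These 2 were the called members of 15 tested genes of uptake and activation. Of the 15, 9 had log2 fold changes above 0 and 6 below, down to -3.64. In 5 every WD liver lay above every CD liver, and in 2 every WD liver lay below. DESeq2 on the gene sums called 6 higher and 3 lower.

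Among 14 lipid droplet genes 3 were higher and none lower, against 1.64% and 0.967% of all tested genes. The median log2 fold change was 0.33, or 0.22 without WD replicate 1. DESeq2 on the gene sums called 5 of these genes higher and 1 lower. Fitm1, a protein of the endoplasmic reticulum that takes part in droplet formation and is best known from muscle, stood at 13.7, 13.7, 15.5 and 16.2 CPM in WD livers and 4.07, 2.93, 3.01 and 1.55 CPM in CD livers. Even the lowest WD liver was 3.35 times the highest CD liver, and the call (2.32 ± 0.22, adjusted p = 0.000273) held without each library, as did that of Hsd17b11, a droplet-bound dehydrogenase (0.92 ± 0.16, adjusted p = 0.0129). Fitm2, the relative of Fitm1 whose product cleaves acyl-CoA, stood at 58.2, 57.4, 41.1 and 72.1 CPM in WD livers and 35.5, 33.3, 41.8 and 31.7 CPM in CD livers. WD replicate 3 lay below CD replicate 3, so that the groups overlapped. The call was marginal (0.68 ± 0.16, adjusted p = 0.0467) and was lost at an adjusted p of 0.0598 to 0.123 without WD replicates 1, 2 or 4 or any 1 CD library. Cidec, which enlarges droplets, stood at 41.2, 13.4, 3.01 and 13.8 CPM in WD livers and 1.06, 0.652, 0.407 and 0.413 CPM in CD livers. The groups did not overlap, but the WD livers were widely spread and the gene just missed the threshold (4.76 ± 0.93, adjusted p = 0.0506).

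Of 9 tested genes of triacylglycerol synthesis Mogat1, a monoacylglycerol acyltransferase, was called higher (2.43 ± 0.49, adjusted p = 0.0264) at 1.31 to 2.27 CPM in WD livers and 0 to 0.453 CPM in CD livers, with an adjusted p of 0.053 to 0.0693 without CD replicates 2 or 3 and too few counts to be tested without any 1 WD library. Gpat3, a glycerol 3-phosphate acyltransferase of the endoplasmic reticulum outside that list, stood at 8.73, 7.92, 8.57 and 14.3 CPM in WD livers and 1.13, 1.71, 0.896 and 1.03 CPM in CD livers. Every WD liver was at least 4.63 times the highest CD liver (3.03 ± 0.27, adjusted p = 0.00017), and the call held without each library. Cfd, the gene of adipsin, a product of fat cells, stood at 18.7, 25.9, 69.7 and 95.99 CPM in WD livers and 0, 0.0815, 0.244 and 0 CPM in CD livers. The CD values come from 4 counts in all, so the fitted fold change depends on the prior count and is not given, and the gene fell under the count filter without any 1 WD library. Its adjusted p was 0.00978. Of 9 adipocyte markers 5 were too low to test, 1 of them at 0 in all 8 livers, and the other 3 tested were not called. The sum of the 9 ran from 849.99 to 1379 CPM in WD livers and from 518 to 1048 CPM in CD livers. The part of other cell types in these values was not tested.

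In ω-oxidation, which oxidizes the methyl end of fatty acids to give dicarboxylic acids, 4 of 10 tested genes were higher and none was lower. Over all tested genes 1.64% were higher and 0.967% lower. The median log2 fold change of the list was 0.85. DESeq2 on the gene sums called 6 members higher and 1 lower, and edgeR with no count filter 4 higher and 1 lower. Cyp4a10 stood at 272, 693, 469 and 1095 CPM in WD livers and 33.2, 50.8, 54.4 and 60.4 CPM in CD livers. WD replicate 4 was the highest and replicate 1 the lowest WD liver, and the lowest was 4.50 times the highest CD liver (log2 fold change 3.67 ± 0.44 (SE), adjusted p = 0.00641). Reads of the near-identical Cyp4a10, Cyp4a31 and Cyp4a32 can be split between them, so the value of one of them is uncertain. Aldh3a2, the fatty aldehyde dehydrogenase, stood at 620.4, 646, 455 and 673 CPM in WD livers and 146, 182, 126 and 207 CPM in CD livers. It was apart in all livers and passed without each library (1.86 ± 0.18, adjusted p = 0.00039). Cyp4f15 (0.66 ± 0.12, adjusted p = 0.0192) and Cyp4a31 (1.74 ± 0.36, adjusted p = 0.0371) were called too, and lost the call at adjusted p of 0.0512 to 0.0638 without WD replicates 3 or 4 or any 1 CD library and of 0.0598 to 0.103 without WD replicate 3 or any 1 CD library.

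**Figure D3:**
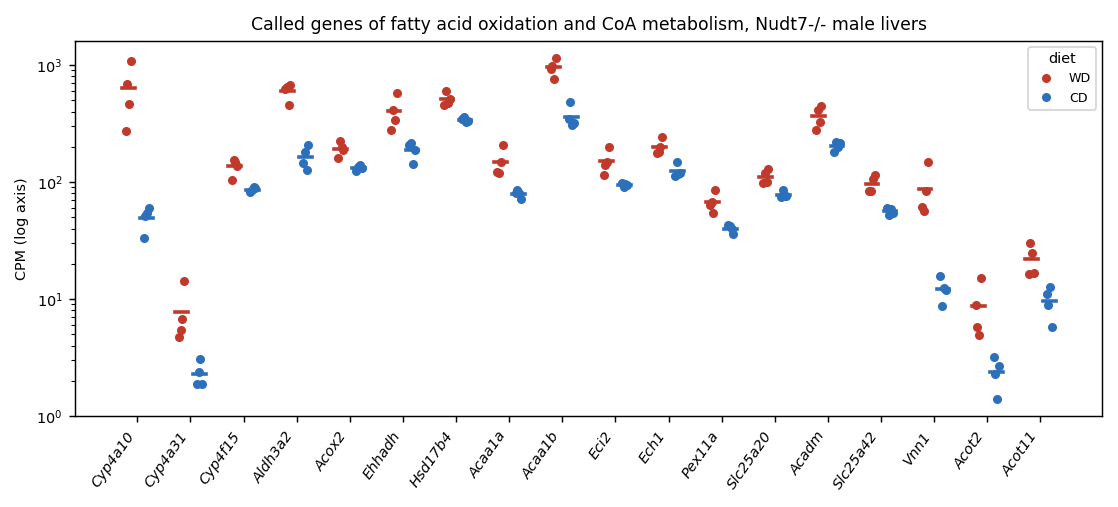
Called genes of ω-oxidation, peroxisomal oxidation, peroxins, mitochondrial oxidation and CoA metabolism, on a log axis of CPM, with 1 point per liver, red for WD and blue for CD, and lines at the means of 4 livers. The 18 genes shown were chosen as called, and in each the WD livers lie above the CD livers. Of all 323 called genes 320 did not overlap, and 5.83% of all tested genes were higher without overlap. The widest gap is that of Cyp4a10, at 272 to 1095 CPM in WD livers and 33.2 to 60.4 CPM in CD livers.

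In peroxisomal fatty acid oxidation 8 of 22 tested genes were higher and none was lower, and the median log2 fold change was 0.50, or 0.31 without WD replicate 4. Over all tested genes 1.64% were called higher. In 11 of the 22 every WD liver lay above every CD liver, against 5.83% of all tested genes. In 1 every WD liver lay below every CD liver, against 5.17%. DESeq2 on the gene sums called 10 members higher and 1 lower. Acaa1b, a thiolase of the last step, stood at 923, 989, 761 and 1155 CPM in WD livers and 344, 479, 309 and 319 CPM in CD livers. The lowest WD liver was 1.59 times the highest CD liver, and it was the 1 member called without each library (1.40 ± 0.18, adjusted p = 0.00298). The close relative Acaa1a, which can share reads with it, stood at 121, 119.9, 148 and 207 CPM in WD livers and 80.4, 85.7, 81.4 and 71.1 CPM in CD livers. Its groups were apart as well (0.90 ± 0.17, adjusted p = 0.0192). Ehhadh, the bifunctional enzyme induced by PPARα, stood at 281, 416, 337 and 579 CPM in WD livers and 206, 217, 142 and 188 CPM in CD livers. WD replicate 4 was highest, as it was for Cyp4a10, Acaa1a and Acaa1b (1.10 ± 0.22, adjusted p = 0.0285). Hsd17b4, the other bifunctional enzyme, rose less (0.58 ± 0.13, adjusted p = 0.0386), and so did Acox2, the oxidase of branched chains and of bile acid intermediates (0.55 ± 0.12, adjusted p = 0.0359).

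Called members also included Ech1, a dienoyl-CoA isomerase (0.69 ± 0.13, adjusted p = 0.0236), and Eci2, an enoyl-CoA isomerase (0.67 ± 0.15, adjusted p = 0.0408). These 7 calls were each lost without some libraries. The adjusted p of those named became 0.0512 to 0.0617 without WD replicate 3 or any 1 CD library for Acaa1a, 0.0529 to 0.0773 without WD replicates 2 or 4 or any 1 CD library for Ehhadh, 0.0536 to 0.104 without WD replicates 2, 3 or 4 or any 1 CD library for Hsd17b4 and 0.0524 to 0.0986 without WD replicates 2, 3 or 4 or any 1 CD library for Acox2. For Ech1 it became 0.0632 to 0.0787 without WD replicates 3 or 4 or CD replicates 1, 3 or 4 and for Eci2 0.0762 to 0.101 without WD replicates 3 or 4 or any 1 CD library. The list held 2 calls of higher genes without CD replicate 1 or 2 or WD replicate 3 or 4, 1 without CD replicate 3 or 4, 4 without WD replicate 2 and 7 without WD replicate 1. Of 16 peroxins 1 was called, Pex11a, which drives division of peroxisomes and stood at 63.8, 67.96, 54.4 and 85.7 CPM in WD livers and 42.9, 41.7, 39.8 and 35.8 CPM in CD livers. It was apart in all livers and held without each library (0.76 ± 0.13, adjusted p = 0.014).

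In mitochondrial fatty acid oxidation and ketogenesis 2 of 22 tested genes were higher and none lower, with a median log2 fold change of 0.36 and 17 genes above 0. Here 15 genes reached an unadjusted p under 0.05 and DESeq2 called 8, against 12 and 11 in peroxisomal oxidation. Acadm, the medium-chain acyl-CoA dehydrogenase, stood at 278, 416, 325 and 451 CPM in WD livers and 182, 218, 199 and 216 CPM in CD livers. The groups were apart (0.85 ± 0.16, adjusted p = 0.0191). Slc25a20, the carnitine-acylcarnitine carrier, rose slightly (0.52 ± 0.11, adjusted p = 0.0386). The adjusted p became 0.0601 to 0.0638 without WD replicate 4 or CD replicates 1 or 3 for Acadm and 0.0515 to 0.111 without WD replicates 2, 3 or 4 or any 1 CD library for Slc25a20. Cpt1a, the gate of the mitochondrial pathway, stood at 434, 535, 442 and 668 CPM in WD livers and 351, 231, 389 and 265 CPM in CD livers and did not pass, although its groups did not overlap (0.75 ± 0.20, adjusted p = 0.07).

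Of 20 genes of CoA synthesis, CoA degradation and acyl-CoA hydrolysis, 4 were higher and none lower, against 1.64% and 0.967% of all tested genes. Vnn1, the pantetheinase that recycles pantothenate, the vitamin precursor of CoA, stood at 61.2, 56.95, 83.3 and 149 CPM in WD livers and 15.7, 8.72, 12.3 and 11.97 CPM in CD livers. WD livers were at least 3.63 times the highest CD liver, and the call held without each library (2.85 ± 0.35, adjusted p = 0.00771). Slc25a42, the mitochondrial carrier of CoA, stood at 83.1, 83.3, 105 and 114 CPM in WD livers and 60.1, 52.7, 59.2 and 54.7 CPM in CD livers. Both groups were narrow, and this call held too (0.77 ± 0.12, adjusted p = 0.00814). The acyl-CoA thioesterases Acot2 (1.86 ± 0.38, adjusted p = 0.0392) and Acot11 (1.19 ± 0.26, adjusted p = 0.0496) were called too, and the adjusted p became 0.054 to 0.111 without WD replicates 1 or 4 or any 1 CD library for Acot2 and 0.0607 to 0.144 without WD replicates 2, 3 or 4 or any 1 CD library for Acot11. Acot2 can share reads with its near-identical neighbours.

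The other CoA diphosphohydrolases did not pass. Nudt19, of the peroxisome, stood at 31.1, 30.02, 29.7 and 28.4 CPM in WD livers and 38.4, 40.2, 31.5 and 31.6 CPM in CD livers. All WD livers were slightly below all CD livers (-0.25 ± 0.10, adjusted p = 0.24). Nudt8, of mitochondria, stood at 8.25, 6.11, 5.87 and 5.47 CPM in WD livers and 5.88, 8.64, 5.62 and 5.98 CPM in CD livers. Its groups overlapped (-0.02 ± 0.19, adjusted p = 0.966). The Nudt7 sum itself, over all annotated transcripts, stood at 92.6, 40.4, 155 and 57.5 CPM in WD livers and 179, 72.1, 246 and 59.5 CPM in CD livers. It varied widely within each diet, replicate 3 being the highest in both, and did not pass (-0.69 ± 0.60, adjusted p = 0.62).

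In the bile acid lists 3 genes were called by edgeR, all higher, where 1.64% of all tested genes were higher. DESeq2 on the gene sums called 3 transport and FXR genes higher and 2 lower, and with length offsets 2 higher and 1 lower. Abcc3, the basolateral exporter MRP3, stood at 239, 259, 261 and 371 CPM in WD livers and 46.6, 72.1, 66.7 and 48.2 CPM in CD livers. The lowest WD liver was 3.31 times the highest CD liver (2.27 ± 0.19, adjusted p = 0.000146). Abcb4, the phosphatidylcholine floppase of the canaliculus, stood at 396, 409.7, 331 and 409 CPM in WD livers and 216, 220.2, 225 and 189.7 CPM in CD livers. It was apart in all livers (0.86 ± 0.12, adjusted p = 0.00386), and both calls held without each library. Abcc3 and Abcb4 were the 2 called by edgeR of 14 tested transport and FXR genes. The uptake transporter Slc10a1 (-0.63 ± 0.21, adjusted p = 0.139) and the bile salt export pump Abcb11 (-0.48 ± 0.16, adjusted p = 0.149) did not pass. Of 14 genes of bile acid synthesis and conjugation 1 was higher, Acox2, and none lower. Cyp7a1, the rate-limiting enzyme of the classic pathway, named for that role and not by rank, stood at 32.5, 80.4, 82.5 and 116 CPM in WD livers and 83.1, 32.8, 58.6 and 24.1 CPM in CD livers. The groups overlapped (0.64 ± 0.50, adjusted p = 0.575).

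Of 21 genes of apolipoproteins and lipoprotein handling, 1 rose and 1 fell. Angptl4, a secreted inhibitor of lipoprotein lipase and a target of PPARα, stood at 26.2, 37.9, 35.99 and 43.8 CPM in WD livers and 12.00, 10.8, 9.78 and 8.36 CPM in CD livers. All WD livers were at least 2.18 times the highest CD liver (1.81 ± 0.16, adjusted p = 0.000235). Apom, the HDL apolipoprotein that carries sphingosine 1-phosphate, stood at 81.2, 66.2, 112 and 94.98 CPM in WD livers and 165, 189.9, 175 and 195 CPM in CD livers. All WD livers were lower, replicate 2 lowest (-1.03 ± 0.15, adjusted p = 0.00534), and both calls held without each library. Apoa4, secreted with lipid-rich particles, stood at 2897, 1896, 779 and 1216 CPM in WD livers and 649, 539, 746 and 313 CPM in CD livers. Its WD livers were widely spread and the lowest only just cleared the CD livers, and it did not pass (1.59 ± 0.42, adjusted p = 0.0886).

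Secreted regulators moved in both directions, with 2 higher and 2 lower of 20. Inhbe, the activin E subunit made by hepatocytes, stood at 95.4, 140.1, 97.2 and 117 CPM in WD livers and 32.5, 46.9, 48.1 and 52.6 CPM in CD livers. Inhba, the activin A subunit, stood at 24.2, 16.9, 21.2 and 20.5 CPM in WD livers and 60.6, 70.6, 61.99 and 37.5 CPM in CD livers. Neither gene overlapped between the diets, the first rising (1.32 ± 0.17, adjusted p = 0.00296) and the second falling (-1.48 ± 0.18, adjusted p = 0.00298), without exception when a library was left out. Fst, follistatin, which binds activins, fell as well (-1.86 ± 0.36, adjusted p = 0.03), with an adjusted p of 0.0531 to 0.101 without WD replicates 2 or 4 or CD replicates 1, 2 or 3. Angptl4 was the other gene of this list that rose.

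Drug metabolism and sex-biased genes had few calls by edgeR, where 1.64% of all tested genes were higher and 0.967% lower. DESeq2 on the gene sums called 10 P450 genes of families 1 to 3 higher and 1 lower. Of 31 P450 genes of families 1 to 3, 2 were higher, Cyp2a22 (3.34 ± 0.52, adjusted p = 0.0136) at 4.97 to 18.1 CPM in WD livers and 0.489 to 1.47 CPM in CD livers, and the female-predominant Cyp3a41a (3.29 ± 0.58, adjusted p = 0.014) at 1.43 to 3.11 CPM in WD livers and 0 to 0.516 CPM in CD livers. Cyp2a22 had an adjusted p of 0.0548 without CD replicate 1, and Cyp3a41a had too few counts to be tested without any 1 WD library. Both have near-identical relatives that can share their reads. Of 31 genes of phase 2 conjugation, Gsta1 (3.85 ± 0.63, adjusted p = 0.0192) and Ugt2b35 (0.51 ± 0.12, adjusted p = 0.0426) were higher and Gstm6 (-0.99 ± 0.21, adjusted p = 0.0428) lower. Gsta1 stood at 17.5 CPM in WD replicate 1 and at 3.63 to 5.88 CPM in the other WD livers, against 0.326 to 0.897 CPM in CD livers. These calls were lost at adjusted p of 0.0512 to 0.0739 without any 1 CD library for Gsta1, of 0.0531 to 0.123 without WD replicates 2, 3 or 4 or any 1 CD library for Ugt2b35 and of 0.0505 to 0.113 without WD replicates 1, 3 or 4 or any 1 CD library for Gstm6. Of 13 carboxylesterases Ces3b was lower (-0.83 ± 0.19, adjusted p = 0.047), with an adjusted p of 0.0512 to 0.137 without any 1 WD library or any 1 CD library. Of 15 male-predominant genes the steroid dehydrogenase Hsd3b5 was lower (-1.18 ± 0.25, adjusted p = 0.0426), with an adjusted p of 0.0512 to 0.0972 without WD replicates 1, 2 or 4 or any 1 CD library. The 10 female-predominant genes high enough to test held 2 calls, Vnn1 and Cyp3a41a, and a median of 1.02, which became 0.17, 0.07, 0.32 and -0.33 without WD replicates 1 to 4 in turn and 0.61 over all 21 with no count filter. Of the 10, 8 passed the count filter without any 1 WD library.

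Stress and inflammatory lists held few calls by edgeR. The 20 acute phase genes and metallothioneins had a median log2 fold change of 0.61, and of 0.21 without WD replicate 3, with 12 members above 0 and 8 below. By edgeR 1 of them was called, with 11 at an unadjusted p under 0.05, and DESeq2 called 5 higher and 3 lower. The called gene, Mt2, was higher (2.90 ± 0.56, adjusted p = 0.0305) at 1.89 to 10.1 CPM in WD livers and 0.326 to 1.13 CPM in CD livers, with an adjusted p of 0.0548 to 0.0939 without WD replicate 1 or any 1 CD library. In the unfolded protein response, Trib3, a pseudokinase, stood at 5.77, 6.19, 6.87 and 12.96 CPM in WD livers and 2.49, 2.28, 2.20 and 2.37 CPM in CD livers. The CD livers were nearly equal and the lowest WD liver was 2.32 times the highest of them (1.76 ± 0.27, adjusted p = 0.00678). Atf4, the transcription factor that is known to drive Trib3, stood at 72.5, 71.1, 65.6 and 59.2 CPM in WD livers and 114, 101.5, 95.96 and 93.5 CPM in CD livers. It lay lower in every WD liver (-0.59 ± 0.10, adjusted p = 0.0139), with an adjusted p of 0.0539 to 0.0547 without WD replicates 3 or 4. Of 9 NRF2 targets Srxn1 (0.84 ± 0.15, adjusted p = 0.0175) and Nqo1 (0.97 ± 0.20, adjusted p = 0.0339) were higher, with adjusted p of 0.0512 to 0.0574 without WD replicate 4 or CD replicates 2, 3 or 4 for Srxn1 and of 0.0579 to 0.102 without WD replicates 2, 3 or 4 or CD replicates 1, 3 or 4 for Nqo1. Of 19 nuclear receptors Pparg was higher (1.64 ± 0.37, adjusted p = 0.0485), with an adjusted p of 0.0531 to 0.13 without any 1 WD library or any 1 CD library, and Ppara did not pass (0.75 ± 0.20, adjusted p = 0.0824). By edgeR 0 of 18 clock, 0 of 12 interferon and 0 of 7 cell cycle genes passed, with 5, 2 and 1 at an unadjusted p under 0.05. DESeq2 called 3 of the clock genes and 0 of the other 2 lists.

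Among markers of other cells, Themis, which takes part in T cell receptor signaling, stood at 9.45, 10.1, 8.11 and 10.3 CPM in WD livers and 0.226, 0.326, 0.326 and 0.413 CPM in CD livers. The WD livers were nearly equal, and the lowest was 19.6 times the highest CD liver (4.86 ± 0.23, adjusted p = 1.46e-06), and the gene fell under the count filter without any 1 WD library. Of the 14 markers of T, B and NK cells 5 were high enough to test, and the other 4 of these were not called. The sum of the 14 ran from 15.7 to 18.1 CPM in WD livers and from 7.33 to 8.80 CPM in CD livers. The gap was that of Themis, since the other 13 summed to 5.58 to 8.25 CPM in WD livers and 6.91 to 8.48 CPM in CD livers. Lrat, which esterifies retinol in stellate cells, was higher (0.85 ± 0.20, adjusted p = 0.0496), with an adjusted p of 0.0674 to 0.126 without WD replicates 2 or 4 or any 1 CD library, as 1 of 10 stellate cell and fibroblast markers tested. Their sum was 617 CPM in WD replicate 1 and 349 to 373 CPM in the other WD livers, against 323 to 367 CPM in CD livers. The hepatocyte marker Ttr was lower (-0.88 ± 0.18, adjusted p = 0.0267), with an adjusted p of 0.0663 to 0.102 without WD replicates 3 or 4 or CD replicates 1, 2 or 4. The part of cell composition in these values was not tested.

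**Figure D4:**
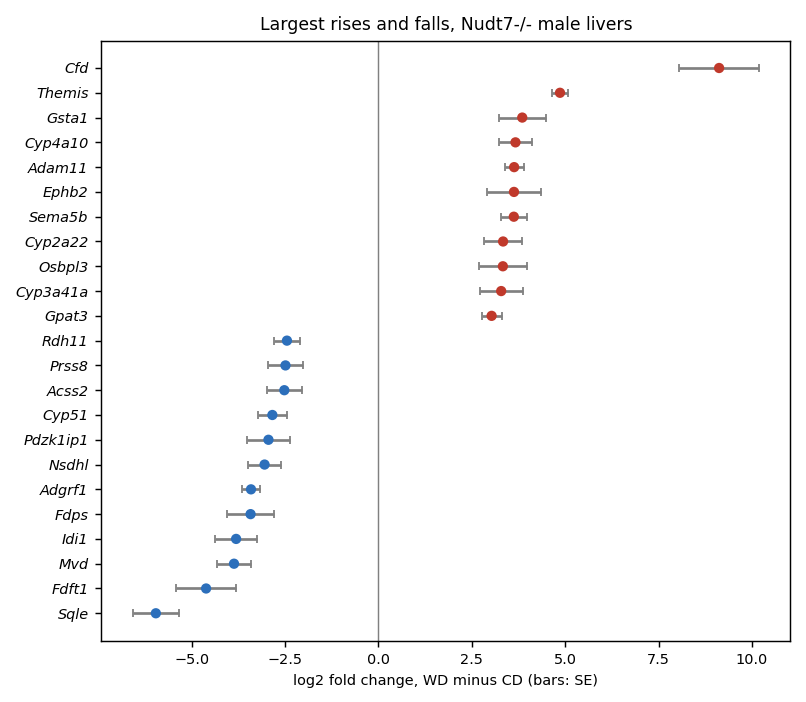
Of the 12 largest rises, 11, with the 12 largest falls, among called genes with a mean log2 CPM above 0 and no overlap between diets, with the log2 fold change on the x axis and its SE as bars. Falls, in blue, run to -5.96 for Sqle, and 7 of the 12 are members of cholesterol synthesis. The point of Cfd rests on 4 counts in CD livers and depends on the prior count.

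Most of the largest rises lay outside the pathways above. Adam11, a member of the ADAM family without protease activity, stood at 39.98, 60.04, 87.3 and 67.7 CPM in WD livers and 5.36, 6.03, 3.67 and 5.47 CPM in CD livers. Each WD liver was at least 6.63 times the highest CD liver (3.63 ± 0.25, adjusted p = 0.00012). Sema5b, a semaphorin known from axon guidance, stood at 4.97, 7.02, 4.40 and 6.73 CPM in WD livers and 0.830, 0.489, 0.244 and 0.206 CPM in CD livers. It was low and well apart (3.63 ± 0.35, adjusted p = 0.000305), and both calls held without each library. Osbpl3, a lipid-transfer protein related to the oxysterol-binding protein, stood at 31.7, 11.1, 4.17 and 13.5 CPM in WD livers and 1.43, 1.63, 1.71 and 1.14 CPM in CD livers. WD replicate 1 was the highest and replicate 3 the lowest WD liver (3.33 ± 0.63, adjusted p = 0.0424), and the adjusted p became 0.0592 to 0.115 without WD replicates 2 or 4 or any 1 CD library. Ephb2, a receptor of ephrins, stood at 10.9, 2.79, 1.70 and 2.78 CPM in WD livers and 0.528, 0.245, 0.326 and 0.310 CPM in CD livers. WD replicate 1 stood far above the other WD livers (3.63 ± 0.71, adjusted p = 0.0368). The adjusted p of Ephb2 became 0.0943 to 0.111 without any 1 CD library, and the gene had too few counts to be tested without any 1 WD library.

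The largest falls outside cholesterol synthesis began with Adgrf1, an adhesion G protein-coupled receptor, which stood at 1.36, 0.830, 1.31 and 1.51 CPM in WD livers and 12.7, 10.03, 17.7 and 13.1 CPM in CD livers. The lowest CD liver was 6.62 times the highest WD liver, and the call held without each library (-3.41 ± 0.24, adjusted p = 3.86e-05). Rdh11, a retinal reductase of the endoplasmic reticulum, stood at 21.1, 19.3, 11.97 and 11.3 CPM in WD livers and 135, 83.1, 77.3 and 51.5 CPM in CD livers. CD replicate 1 was highest and CD replicate 4 lowest of the CD livers, as for Acss2, and all lay above the WD livers (-2.45 ± 0.34, adjusted p = 0.0123). Pdzk1ip1, a small membrane protein (-2.94 ± 0.59, adjusted p = 0.0364), and Prss8, the serine protease prostasin (-2.49 ± 0.47, adjusted p = 0.0237), fell in livers with a mean of a few CPM. The adjusted p became 0.0603 to 0.115 without any 1 WD library or CD replicates 2 or 3 for Pdzk1ip1 and 0.0512 to 0.0784 without WD replicates 3 or 4 or CD replicates 2 or 3 for Prss8.

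Whether the diet effect in Nudt7-/- males differed from that in WT males was tested as a difference of the diet effects in a model of all 32 libraries, and 8 of 13539 genes passed (0.0591%), 3 with a more positive effect in Nudt7-/- males (0.0222%) and 5 with a more negative one (0.0369%). Omitting 1 of the 16 libraries gave 3 (WT WD replicate 3 or Nudt7-/- WD replicate 4) to 33 genes (Nudt7-/- WD replicate 2). A fit of only the 16 male libraries called 0 genes, with 1569 at an unadjusted p under 0.05, against 5 by edgeR with length offsets, 72 by DESeq2 on the gene sums and 21 by DESeq2 with length offsets. Apoa4 stood at 506, 695, 529.9 and 379 CPM in WT males fed the WD and 1229, 909, 899 and 794 CPM in WT males fed the CD. It was thus lower with the WD in WT males (-0.85 ± 0.18, adjusted p = 0.0148) where 13.7% of tested genes were called, while the Nudt7-/- livers given above ran the other way, with a difference of 2.44 ± 0.42, adjusted p = 0.0149. Rassf3, of the RAS association domain family, stood at 59.8, 62.4, 60.2 and 55.7 CPM in Nudt7-/- males fed the WD and 81.9, 94.1, 97.1 and 72.5 CPM in those fed the CD. In WT males it stood at 87.7, 102, 114 and 113 CPM with the WD and 93.1, 89.4, 86.6 and 83.2 CPM with the CD. The WD livers were all the lower in Nudt7-/- males and mostly the higher in WT males, a difference of -0.80 ± 0.13, adjusted p = 0.0116. Abhd17b, a depalmitoylase, also differed (-0.83 ± 0.14, adjusted p = 0.0116). These 3 were called without each of the 16 male libraries in turn.

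The other 5 genes depended on single libraries. Dio1, the deiodinase that activates thyroxine, stood at 127, 115, 137 and 134 CPM in Nudt7-/- males fed the WD and 59.8, 63.3, 75.2 and 67.9 CPM in those fed the CD. In WT males it stood at 107, 103, 90.6 and 77.1 CPM with the WD and 81.03, 78.6, 98.9 and 97.8 CPM with the CD. The Nudt7-/- livers were apart by diet (0.95 ± 0.10, adjusted p = 0.000987), the WT livers overlapped, and the difference was 0.85 ± 0.16, adjusted p = 0.0296. It was called in 8 of 16 fits without 1 library, with a highest adjusted p of 0.0796. Adgrf1 differed by -2.85 ± 0.56, adjusted p = 0.034, and was called in 6 of 16 such fits. Sbk1, Ugt2b38 and Ogfrl1 were the others, at 1.98, -4.37 and -0.82, in 7, 9 and 6 of the 16 fits. Ugt2b38 stood at 3.61, 1.51, 3.78 and 2.78 CPM in Nudt7-/- males fed the WD and 3.40, 3.18, 24.4 and 2.68 CPM in those fed the CD, with CD replicate 3 far above the others. In WT males it stood at 10.8, 8.05, 6.92 and 5.95 CPM with the WD and 0.953, 0.366, 1.42 and 1.80 CPM with the CD, all WD livers being higher (2.84 ± 0.34, adjusted p = 0.0012). By edgeR and by DESeq2 0 of the 20 cholesterol synthesis genes passed this test, with 0 at an unadjusted p under 0.05, and their median log2 fold change was -2.32 in Nudt7-/- males and -2.12 in WT males. For peroxisomal oxidation the medians were 0.50 and 0.34, and for ω-oxidation 0.85 and 1.13.

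The diet effect differed between Nudt7-/- males and Nudt7-/- females for 32 genes (0.236% of 13539), 26 of them more positive (0.192%) and 6 more negative (0.0443%) in males. Omitting 1 library gave 18 (female WD replicate 3) to 58 genes (female CD replicate 3). Abcc3 stood at 151, 171, 190.0 and 177 CPM in Nudt7-/- females fed the WD and 171, 145, 202 and 192 CPM in those fed the CD. The female groups overlapped, unlike those of the males, and the difference was 2.30 ± 0.30, adjusted p = 0.000343. Sulf2, an extracellular heparan sulfatase, stood at 29.00, 35.00, 25.6 and 36.9 CPM in males fed the WD and 10.3, 9.78, 11.6 and 8.15 CPM in males fed the CD. In females, where the diet changed 0.125% of tested genes, it was not called (0.31 ± 0.13, adjusted p = 0.469), and the difference was 1.35 ± 0.22, adjusted p = 0.00406. Gpat3 (2.50 ± 0.42, adjusted p = 0.0043), Osbpl3 (3.25 ± 0.52, adjusted p = 0.00406) and Il1rn, the interleukin-1 receptor antagonist (2.86 ± 0.53, adjusted p = 0.0122), were also more positive in males.

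More negative in males were Apom (-0.96 ± 0.18, adjusted p = 0.0127), Rassf3 (-0.81 ± 0.13, adjusted p = 0.00406), Adgrf1 (-2.80 ± 0.54, adjusted p = 0.0127), Clec2d, a C-type lectin (-1.02 ± 0.20, adjusted p = 0.0127), Rpl28-ps1 and Hamp, the gene of hepcidin, at -0.92 and -2.11. Hamp was called in only 3 and Rpl28-ps1 in 10 of 16 fits without 1 library, with a highest adjusted p of 0.126 and 0.0877. Apom, Rassf3, Adgrf1 and Clec2d were called in all 16. Apom stood at 185, 205, 183 and 157 CPM in females fed the WD and 214, 190.0, 192 and 179 CPM in females fed the CD, so that the female livers overlapped while those of the males did not. Dio1 (0.83 ± 0.16, adjusted p = 0.0127) and Apoa4 (2.27 ± 0.42, adjusted p = 0.0127) passed this test as well as that between the genotypes, as did Rassf3 and Adgrf1. By edgeR 0 of the 20 genes of cholesterol synthesis passed it, with 9 at an unadjusted p under 0.05 and 1 called by DESeq2, and with median log2 fold changes of -2.32 in males and -1.05 in females.

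**Figure D5:**
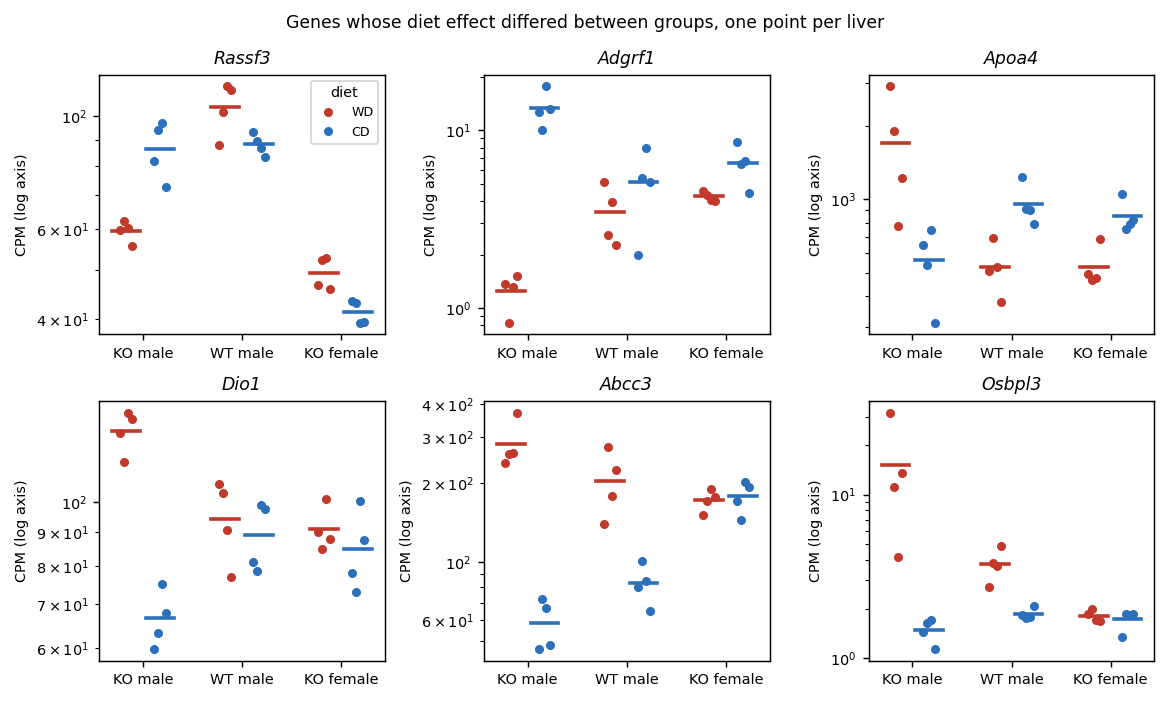
The 4 genes called in both differences of the diet effect and the 2 others with the smallest adjusted p between the sexes, on log axes of CPM, with 1 point per liver and lines at the means of 4 livers. WD is red and left of CD in blue for Nudt7-/- (KO) males, WT males and KO females. Dio1 stands at 115 to 137 CPM in KO males fed the WD and 59.8 to 75.2 CPM in KO males fed the CD, and the diets overlap in the other 2 groups.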

How the data were processed

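Poly(A) RNA of mouse livers was read in 50-base pairs, with 4 livers in each of 8 groups, taken as the replicates the labels give. The authors quantified transcripts with Salmon 1.3.0, and the deposited files hold estimated counts and TPM, with GRCm38 as the build, while their own DESeq2 1.28.1 tests were not used. Estimated counts were summed per gene over GENCODE vM21 and rounded, and TPM was not tested. A gene needed 10 counts or more in 4 or more of the 8 libraries and was tested with edgeR 4.0.16 (quasi-likelihood, TMM, R 4.3.3), with Benjamini-Hochberg adjustment. Fold changes are log2, WD minus CD, followed by the SE. This SE is the absolute log2 fold change divided by the square root of the F statistic of the test. Differences of diet effects were fitted over all 32 libraries. CPM of Nudt7-/- males were scaled over their 8 libraries and CPM of other groups over all 32. CPM levels therefore compare within a group and not strictly between groups. Named genes were Nudt7, Abcg5, Abcg8, Nudt8, Nudt19 and Fitm2, the 12 largest rises and falls, up to 4 members of each list with the smallest p and further called members, and genes called in a difference. Cyp7a1, Tmem97, Hmgcs1, Hsd17b7 and Dhcr7 were added after their values were seen where this rule left them out. Some genes that the rule covers are not reported here by name. The members and lists were chosen with earlier results of these data known. Tests were checked on simulated data, where 15.2% of 1.5-fold, 69.9% of 2-fold and 90.2% of 4-fold changes were called. A small change can therefore go uncalled. Of the simulated calls 4.92% were false. Genes were drawn independently of each other in the simulation, so these rates need not hold for the livers. Reads of near-identical genes (the Cyp4a, Cyp3a41, Cyp2a, Gsta, Acaa1, Acot and Mup families) could be split between copies, so their values are uncertain. DESeq2 1.42.0, length offsets, other filters and omitted libraries were tried as alternatives.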

Additional observations from a re-analysis of the deposited data

Results flagged for a closer look

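Dixon's criterion was applied to groups of 4 livers over 100 genes, at most 200 groups. Groups with no liver at 1 CPM or more were left out. In 12 groups 1 liver stood far from the other 3, which chance alone would give in about 1 of 20 groups examined. WD replicate 4 was that liver 5 times, as the highest for Abcc3 (371 CPM), Gpat3 (14.3 CPM), Trib3 (13.0 CPM) and Slc25a47 (527 CPM), and as the lowest for Acer2 (14.6 CPM). WD replicate 1 was the highest for Gsta1 (17.5 CPM), Ephb2 (10.9 CPM) and Sqle (2.24 CPM), and WD replicate 3 the lowest for Cd36 (131 CPM). Among CD livers, replicate 2 was the highest for Nudt8 (8.64 CPM) and Slc25a20 (84.7 CPM), and replicate 4 the lowest for Tm7sf2 (58.5 CPM).

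The 8 genes whose diet effect differed between Nudt7-/- and WT males had log2 differences of 2.44 for Apoa4, 1.98 for Sbk1, 0.85 for Dio1, -0.80 for Rassf3, -0.82 for Ogfrl1, -0.83 for Abhd17b, -2.85 for Adgrf1 and -4.37 for Ugt2b38.

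Between Nudt7-/- males and Nudt7-/- females 32 genes differed. The log2 difference was 3 or more for Cfd (9.83), the drug-inducible P450 gene Cyp2b10 (7.86), Tpm2 (5.30), Themis (4.61), Lrrc39 (4.32), Fbxo40 (4.21), Krt23 (3.60), Osbpl3 (3.25) and Npnt (3.11). The values of Cfd and Cyp2b10 depend on the prior count and are neither sizes nor bounds, since male CD livers held 4 counts of Cfd and 0 of Cyp2b10. It lay between 2 and 3 for Il1rn (2.86), Adgrv1 (2.58), Gpat3 (2.50), Pnldc1 (2.45), Abcc3 (2.30) and Apoa4 (2.27). It lay between 1 and 2 for Fbf1 (1.85), Sulf2 (1.35), Alpl (1.23), Aldh3a2 (1.21), Fam53b (1.03) and Tacc2 (1.01). It was smaller for 2410131K14Rik (0.93), Dio1 (0.83), Notch1 (0.74), Plod1 (0.55) and Pitrm1 (0.53). It was negative for Rassf3 (-0.81), Rpl28-ps1 (-0.92), Apom (-0.96), Clec2d (-1.02), Hamp (-2.11) and Adgrf1 (-2.80). Without 1 of the 16 libraries in turn, 16 of the 32 were called every time. The fewest such calls were 3 for Hamp and 4 each for Cyp2b10, Adgrv1, Notch1 and Plod1.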

How the results depend on the processing

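DESeq2 called 805 genes on the gene sums (439 higher, 366 lower; 54.53% higher, against 62.85% by edgeR) and 808 with length offsets (447 and 361; 55.32% higher), and edgeR over all 32 libraries called 747 (415 and 332; 55.56% higher). Without 1 library the counts were 111 to 356 genes, 74 to 241 higher and 37 to 120 lower, and without both WD replicate 1 and CD replicate 2, an alternative chosen after seeing the data, 71 genes were lower. Cholesterol synthesis then held 9 lower members, and 9 to 17 without 1 library. Peroxisomal oxidation held 5 higher members by edgeR with length offsets, 4 with the replicate block and 1 to 7 without 1 library. It also held 1 lower member by edgeR with length offsets, with the replicate block and without CD replicate 3. DESeq2 called 8 instead of 1 gene of fatty acid synthesis, 9 instead of 2 of fatty acid uptake, 8 instead of 2 of mitochondrial oxidation, 8 instead of 1 of the acute phase list and 11 instead of 2 of P450 genes. All 8 of fatty acid synthesis were lower, as were 3 of fatty acid uptake, 3 of the acute phase list and 1 P450 gene. Genes differing from WT males numbered 72 by DESeq2, 21 with its length offsets, 5 by edgeR with length offsets, 2 with no filter, 0 with only the 16 libraries and 3 to 33 without 1 library. Genes differing from Nudt7-/- females numbered 163 and 131 by DESeq2 and 18 to 58 without 1 library. Nudt8 turned to 0.12 with the length trend removed and ran from -0.17 to 0.14 without 1 library, above 0 without CD replicate 2, WD replicate 3 or WD replicate 4. The cause was not tested. Deviations of livers with the same replicate number had correlations of -0.21 to 0.0678 across genes, which cannot show whether the numbers pair mice. The labels do not say so either, and the numbers were not used as pairs. With the replicate block 283 genes were called (158 higher, 125 lower), 200 of them among the 323. Fatty acid synthesis then held 8 lower members. Of the other values of named genes, 1836 kept their direction and side of the threshold, 466 lost and 43 gained the call.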

Other observations

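The families and genes described here lie outside the lists and were chosen after their values were seen. Over all tested genes 6030 of 12407 had log2 fold changes below 0 (48.6%). All 78 tested genes of cytosolic ribosomal proteins (Rpl and Rps) had log2 fold changes below 0, with a median of -0.35, although edgeR called 0 of them. In the respiratory chain 46 of 47 Nduf genes of complex I, 16 of 17 Atp5 genes of the ATP synthase and 20 of 20 Uqcr and Cox genes of complexes III and IV were below 0, with medians of -0.31, -0.38 and -0.34. Ndufb8 stood at 72.7, 75.3, 70.05 and 73.9 CPM in WD livers and 110.1, 115, 97.8 and 84.9 CPM in CD livers. The groups were apart, and it was 1 of 4 genes of these families called, all lower (-0.48 ± 0.11, adjusted p = 0.0418). These transcripts are short, with median lengths of 566 to 784 bases against 2529 over all tested genes, and fold changes followed length across genes. With the length trend removed the medians were -0.19 for ribosomal proteins, -0.13 for Nduf, -0.19 for Atp5 and -0.12 for Uqcr and Cox genes, and 0 of the 4 calls remained. In WT males the ribosomal median was -0.40 with 75 of 78 below 0, and in Nudt7-/- females it was -0.01.

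Mitochondrial carriers of the Slc25 family had 5 of 41 members higher and 2 lower, against 1.64% and 0.967% of all tested genes, and all 7 calls stood with the length trend removed. Slc25a34, a carrier without a settled substrate, stood at 4.25, 5.81, 7.65 and 6.39 CPM in WD livers and 1.89, 2.69, 2.12 and 2.58 CPM in CD livers. The groups were apart (1.38 ± 0.22, adjusted p = 0.00863). Slc25a47, a carrier made almost only in liver, was higher too (1.01 ± 0.23, adjusted p = 0.0485), with an adjusted p of 0.053 to 0.127 without any 1 WD library or CD replicates 1, 3 or 4, as was the dicarboxylate carrier Slc25a10 (0.62 ± 0.12, adjusted p = 0.025), with an adjusted p of 0.0693 to 0.082 without WD replicate 4 or CD replicates 1, 3 or 4. The citrate carrier Slc25a1, which feeds fatty acid and sterol synthesis, and Slc25a44 were lower, at -0.85 and -0.51.

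Of further called genes outside the lists, Acer2, an alkaline ceramidase of the Golgi, stood at 18.8, 18.9, 19.5 and 14.6 CPM in WD livers and 10.4, 11.00, 10.8 and 10.01 CPM in CD livers. The groups were apart (0.76 ± 0.12, adjusted p = 0.00708), and Sgms1, a sphingomyelin synthase, rose as well (0.61 ± 0.10, adjusted p = 0.0122). The lysosomal Hexa (0.65 ± 0.12, adjusted p = 0.0154) and the arylsulfatase Arsa (0.83 ± 0.19, adjusted p = 0.0465) were called and lost the call at adjusted p of 0.0512 to 0.0554 without WD replicate 4 or CD replicates 1 or 3 for Hexa and of 0.0646 to 0.118 without WD replicates 1, 3 or 4 or any 1 CD library for Arsa. Gm2a, the GM2 activator protein of the lysosome, was lower (-0.74 ± 0.13, adjusted p = 0.0129), with an adjusted p of 0.0527 without WD replicate 4.

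Retsat, a retinol saturase, stood at 241, 353, 413 and 588 CPM in WD livers and 129, 140.0, 147 and 179 CPM in CD livers. The groups were apart, with WD replicate 4 highest (1.43 ± 0.24, adjusted p = 0.013), and the adjusted p became 0.0512 without CD replicate 2. Plin4, a lipid droplet coat protein best known from fat cells, stood at 0, 10.4, 10.3 and 23.6 CPM in WD livers and at 0 in all CD livers. It was not tested because it passed the count filter in too few libraries.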
